A study of Mus musculus with 12 samples.

Results

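The genes described are the subunits of AMP-activated protein kinase (AMPK), 2 of the kinases that switch it on, and the deacetylase and coactivator with which it shares targets. They are listed by name: Prkaa1, Prkaa2, Prkab1, Prkab2, Prkag1, Prkag2, Stk11, Camkk2, Sirt1 and Ppargc1a. All 10 were found among the 13267 genes of the deposited table, and all 10 passed the filter on low values. Messenger RNA was sequenced from the livers of 12 C57BL/6 mice, all of them fed a high-fat diet until obese and steatotic (with fat-laden livers). The 6 control mice received a scaffold under the skin, and the other 6 received by the same route 4-hydroxyphenylacetic acid (4-HPAA), a small phenolic acid made by gut bacteria. Livers were taken after 6 weeks. No lean, untreated or genetically altered group was used here, and the sources used here give neither age nor sex of the mice. The labels number the samples of a group without naming their origin, so each p-value measures only the spread between these samples, taken as 1 mouse each. The 1 comparison of the design, 4-HPAA against control, asks how the transcriptome of the steatotic liver differs with the compound.

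AMPK is a sensor of cellular energy built from a catalytic alpha, a scaffolding beta and a regulatory gamma subunit, each made by more than one gene. When AMP or ADP displaces ATP on the gamma subunit, the activation loop of the alpha subunit is kept phosphorylated by LKB1 (gene Stk11), while CaMKK2 phosphorylates the same site when calcium rises. Active AMPK restrains fatty acid and cholesterol synthesis in hepatocytes and favours fat oxidation, and it works alongside SIRT1, an NAD-dependent deacetylase, whose substrate PGC-1alpha (Ppargc1a) drives mitochondrial genes and, in fasting, genes of glucose production. AMPK is regulated mainly by phosphorylation and nucleotide binding, which messenger RNA does not record.

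No gene of AMPK, its upstream kinases, Sirt1 or Ppargc1a passed the test between the groups. Of the 10 genes, 0 had an adjusted p under 0.05 and 0 an unadjusted p under 0.05 (limma, Benjamini-Hochberg over 12720 genes), where 0% of all genes tested passed the first threshold and 14.8% the second. The control and 4-HPAA livers overlapped for each of the 10 genes, and 0.66% of all genes tested had groups that did not overlap. Differences, given throughout as log2(value + 1) in 4-HPAA minus control, were positive for 6 genes and negative for 4. Their median was 0.04, against 0.00 over all genes tested (−0.0009 before rounding). The 95% confidence interval of the difference lay within 2-fold either way for all 10 genes, as for 89.6% of all genes tested, and within 1.5-fold either way for 9, as for 68.3%. The exception was Ppargc1a, whose interval reached down to 0.651 of the control level. Liver is a mixture of cells, so fewer cells of a type and less RNA per cell cannot be told apart in any of these values.

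**Figure D1:**
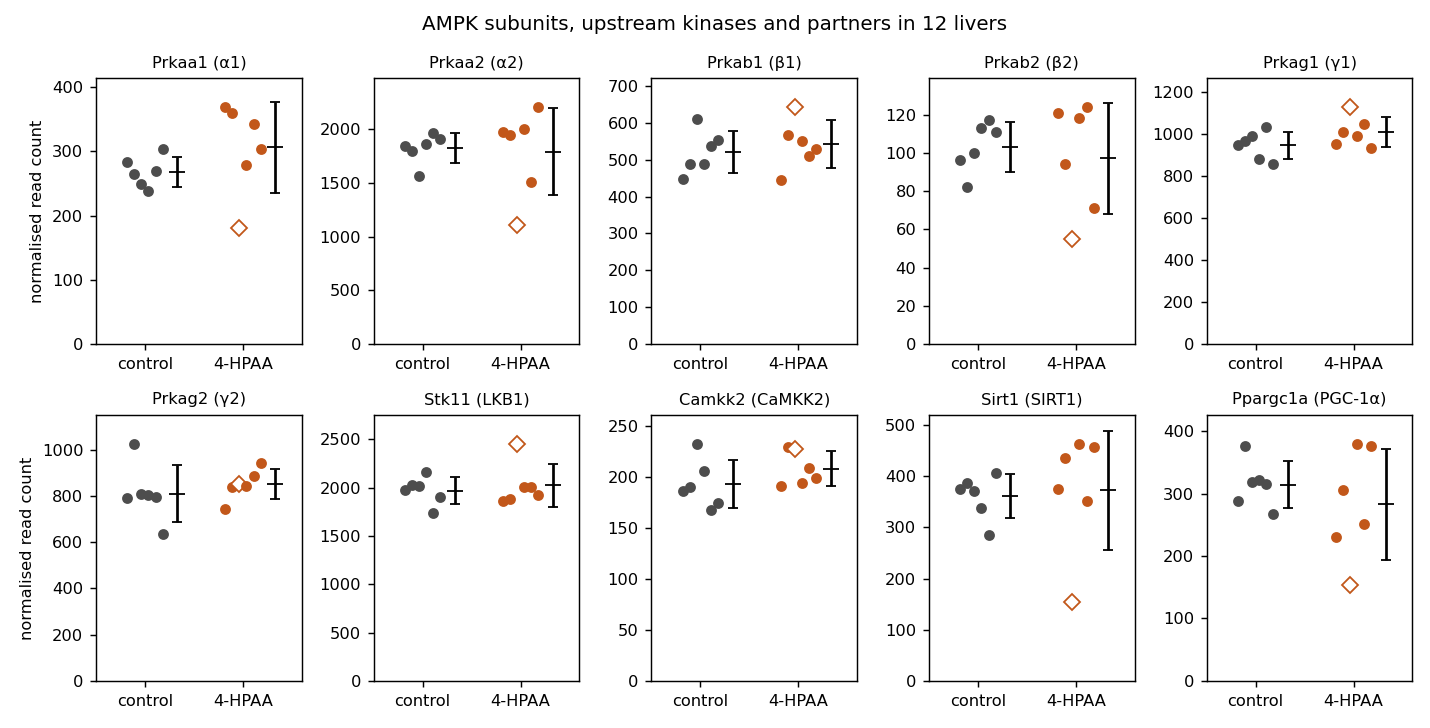
Normalised read count (vertical axis, from 0) of each gene in the 6 control (grey) and 6 4-HPAA (orange) livers. Points are libraries, bars are the mean and SD of a group, and the open diamond is 4-HPAA replicate 3, which is the lowest of 12 libraries for Prkaa1, Prkaa2, Prkab2, Sirt1 and Ppargc1a.

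One library bears on 5 of these genes at once, so it is described first. 4-HPAA replicate 3 was the lowest of the 12 libraries for 5 genes, Prkaa1, Prkaa2, Prkab2, Sirt1 and Ppargc1a. It was the highest for 3, Prkab1, Prkag1 and Stk11, and stood 10th from the lowest for Camkk2 and 9th for Prkag2. The 5 genes at the bottom are the 5 whose transcripts are poorest in G and C, at 40.1 to 47.2% GC. The other 5 lie at 49.4 to 57.5%. GC content is here the mean over all annotated transcripts of a gene. Over all genes tested, the same library lay below the mean of the other 11 by a median of −0.493 on the log2 scale in the genes with the least GC (up to 46.3%, 3164 genes) and above it by 0.264 in those with the most (55% or more, 3163 genes). The medians of the other 11 libraries stayed between −0.081 and 0.124 in the first of these sets and between −0.082 and 0.08 in the other. The part of GC content in the differences of these genes was not tested, beyond an alternative that removes each library's trend with it. For the 10 genes each difference is given with and without this library, and for other pathway genes where leaving it out moved a difference by over 1.5 times.

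**Figure D2:**
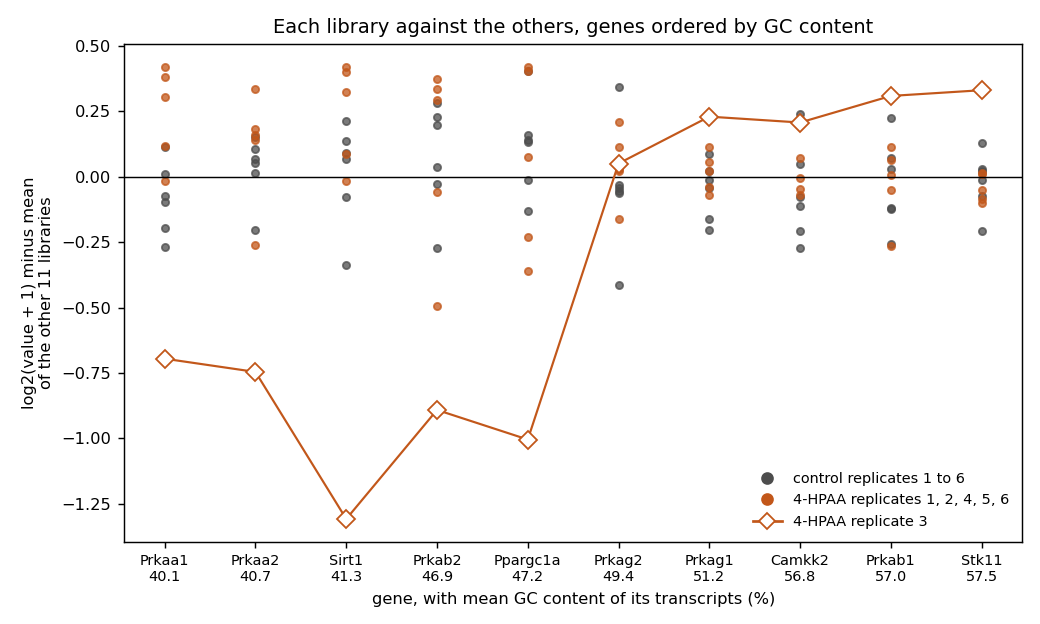
Log2(value + 1) of each library minus the mean of the other 11 (vertical axis) for the 10 genes, ordered by the mean GC content of their transcripts (horizontal axis). Grey points are controls, orange points 4-HPAA livers, and the open diamonds joined by a line are 4-HPAA replicate 3, which lies from −0.696 to −1.31 for the 5 genes up to 47.2% GC and from 0.051 to 0.331 for the others.

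The catalytic subunits were both expressed, with more reads from Prkaa2 than from Prkaa1. Prkaa1, which encodes the alpha1 subunit (GRCm38 chromosome 15, 5143861 to 5181899, plus strand), ranged in controls from 238 to 303 normalised reads with a median of 267, and in 4-HPAA livers from 181 to 369 with a median of 323.5. Means were 268 ± 23.5 and 306 ± 70.2 (SD, n = 6 each), and the groups overlapped because 4-HPAA replicates 3 and 4, at 181 and 279, lay below the highest control. The difference was 0.16 ± 0.15 (SE; limma, adjusted p = 0.672, unadjusted p = 0.319), with a 95% interval from 0.89 to 1.397 of the control level. Without 4-HPAA replicate 3 the difference was 0.30 ± 0.10 (limma, unadjusted p = 0.00709, adjusted p = 0.159), a value past 0.05 unadjusted as were 19.6% of all genes tested in that fit, and not past it after adjustment. With each library's GC trend removed, the difference of Prkaa1 was 0.242 (limma, adjusted p = 0.218). Over all alternatives the adjusted p of Prkaa1 (limma) ranged from 0.0999 to 0.864. The smallest came with array weights, where the difference was 0.304.

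Prkaa2 encodes alpha2 (chromosome 4, 105029874 to 105109890, minus strand). Control livers ranged from 1565 to 1962 normalised reads with a median of 1849, and 4-HPAA livers from 1108 to 2205 with a median of 1958.5. The 4-HPAA group held both the lowest library (replicate 3, at 1108) and the highest (replicate 6, at 2205), so its SD of 404.6 was well above the 137.6 of controls. The difference was −0.06 ± 0.14 (SE; limma, adjusted p = 0.887), and without replicate 3 it was 0.07 ± 0.09 (limma, adjusted p = 0.682). With the GC trend removed it was 0.019 (limma, adjusted p = 0.915), so both alternatives turned its sign.

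The ratio of alpha2 to alpha1 messages did not differ beyond the spread of the livers. Taken within each library, a ratio does not depend on how libraries were scaled. Its mean log2 was 2.76 ± 0.13 over control livers and 2.55 ± 0.28 over 4-HPAA livers (SD, n = 6 each), that is, 6.78 and 5.84 reads of Prkaa2 for each of Prkaa1, with no correction for length. The difference of −0.22 had an exact permutation p of 0.115, two-sided, and 0.344 after Benjamini-Hochberg adjustment over the 3 isoform ratios tested, where the smallest p the design allows is 0.00216. Control ratios ranged from 2.65 to 2.96. 4-HPAA replicates 1, 2, 3 and 5, at 2.41, 2.43, 2.61 and 2.13, lay below every control, and replicates 4 and 6, at 2.84 and 2.85 (2.855 before rounding), lay among them. Replicate 3, in which both genes were at their lowest, was the closest of those 4 to the controls, and without it the difference was −0.23 (exact permutation test, two-sided, p = 0.132, adjusted p = 0.396 over the 3 ratios).

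**Figure D3:**
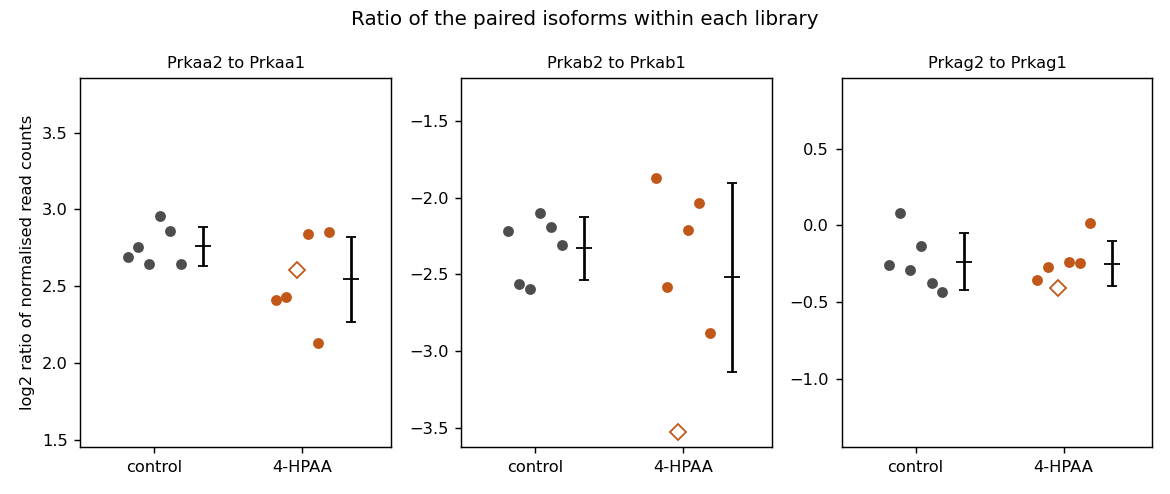
Log2 ratio of the normalised read counts of the paired isoforms within each library (vertical axis; every panel spans the same range). Grey points are controls and orange points 4-HPAA livers, the open diamond is 4-HPAA replicate 3, and bars are the mean and SD. The groups overlap in all 3 panels, and the diamond is lowest for Prkab2 to Prkab1, at −3.52.

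The beta subunits hold the complex together and carry its glycogen-binding module. Prkab1, which encodes beta1 (chromosome 5, 116013586 to 116024508, minus strand), ranged from 449 to 610 normalised reads in controls, with a median of 513.5, and from 446 to 643 with 4-HPAA, with a median of 540. The 2 groups covered almost the same range, and the difference was 0.05 ± 0.10 (SE; limma, adjusted p = 0.844), or 0.002 ± 0.089 without 4-HPAA replicate 3 (limma, adjusted p = 0.992). Prkab2, which encodes beta2 (chromosome 3, 97658193 to 97673812, plus strand), had the fewest reads of the 10 genes. Its values ranged from 82 to 117 in controls, with a median of 105.5, and from 55 to 124 with 4-HPAA, with a median of 106. 4-HPAA replicates 3 and 6, at 55 and 71, lay below all controls, and the other 4-HPAA livers lay between 94 and 124. The difference was −0.14 ± 0.20 (SE; limma, adjusted p = 0.794), and 0.01 ± 0.16 without replicate 3 (limma, adjusted p = 0.969). Counting error alone gives an SD of 0.143 on the log2 scale at the depth of Prkab2, against 0.362 seen between livers of a group. The log2 ratio of Prkab2 to Prkab1 was −2.33 ± 0.21 over control livers and −2.52 ± 0.62 over 4-HPAA livers (SD, n = 6 each), a difference of −0.19 (exact permutation test, two-sided, p = 0.537, adjusted p = 0.805 over the 3 ratios). Without replicate 3 that difference was 0.01.

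The gamma subunits bind adenine nucleotides and neither of their genes differed beyond the spread between livers. Prkag1, which encodes gamma1 (chromosome 15, 98812797 to 98831521, minus strand), ranged from 859 to 1033 normalised reads in controls, with a median of 959.5, and from 934 to 1131 with 4-HPAA, with a median of 1002. The difference was 0.10 ± 0.07 (SE; limma, adjusted p = 0.564, unadjusted p = 0.199), and 0.06 ± 0.06 without 4-HPAA replicate 3 (limma, adjusted p = 0.607). The SD between livers of a group was 0.101 on the log2 scale, the smallest among the 10 genes. Prkag2, which encodes gamma2 (chromosome 5, 24862744 to 25100642, minus strand), ranged from 635 to 1027 in controls, with a median of 801, and from 746 to 943 with 4-HPAA, with a median of 847.5. Both ends of its range were controls, replicate 6 at 635 and replicate 2 at 1027. Its difference was 0.08 ± 0.10 (SE; limma, adjusted p = 0.751), and 0.08 ± 0.10 also without 4-HPAA replicate 3 (limma, adjusted p = 0.694). Their log2 ratio, Prkag2 to Prkag1, was −0.24 ± 0.19 over control livers and −0.25 ± 0.15 over 4-HPAA livers (SD, n = 6 each; exact permutation test, two-sided, p = 0.879, adjusted p = 0.879 over the 3 ratios). The difference of −0.015 became 0.017 without 4-HPAA replicate 3.

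Of the upstream kinases, Stk11 had more normalised reads than Camkk2, with no correction for length. Stk11, which encodes the tumour suppressor kinase LKB1 (chromosome 10, 80115803 to 80130682, plus strand), ranged from 1743 to 2163 normalised reads in controls, with a median of 1996, and from 1866 to 2457 with 4-HPAA, with a median of 1966.5. Apart from 4-HPAA replicate 3, at 2457, every 4-HPAA liver lay inside the control range. The difference was 0.04 ± 0.08 (SE; limma, adjusted p = 0.873), and −0.02 ± 0.06 without that library (limma, adjusted p = 0.874). Camkk2, which encodes the calcium- and calmodulin-dependent kinase (chromosome 5, 122731170 to 122779409, minus strand), ranged from 168 to 233 in controls, with a median of 188, and from 191 to 230 with 4-HPAA, with a median of 204. All 6 4-HPAA livers lay inside the control range, and the difference was 0.12 ± 0.10 (SE; limma, adjusted p = 0.63), or 0.09 ± 0.10 without 4-HPAA replicate 3 (limma, adjusted p = 0.649). Exons of Stk11 overlap those of Cbarp on the opposite strand, and exons of Prkag2 those of Prkag2os1. Opposite-strand genes without a deposited row also overlap exons: Gm17651 those of Prkab2, B130046B21Rik those of Prkag1, Prkag2os2 those of Prkag2 and Gm16145 those of Sirt1. Libraries were directional, but no source used here says whether reads were counted by strand, so reads of such partners may not be fully separated.

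Sirt1 and Ppargc1a had the widest spread between livers of a group, with SDs of 0.445 and 0.369 on the log2 scale, followed by Prkab2 at 0.362. Sirt1 (chromosome 10, 63319005 to 63381704, minus strand) ranged from 286 to 407 normalised reads in controls, with a median of 373.5, and from 154 to 464 with 4-HPAA, with a median of 405.5. 4-HPAA replicate 3, at 154, was the lowest liver by a wide margin, while 4-HPAA replicates 2, 4 and 6, at 436, 464 and 458, lay above every control. The difference was −0.03 ± 0.23 (SE; limma, adjusted p = 0.968). Without replicate 3 it was 0.21 ± 0.11 (limma, unadjusted p = 0.0686, adjusted p = 0.29). The sign also turned without control replicate 6, to 0.007. Removing the GC trend gave 0.037 (limma, adjusted p = 0.908).

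Ppargc1a (chromosome 5, 51454250 to 51567726, minus strand) ranged from 267 to 376 normalised reads in controls, with a median of 317, and from 153 to 380 with 4-HPAA, with a median of 278. 4-HPAA livers spread to both sides of the controls: replicates 3, 1 and 5, at 153, 231 and 251, lay below all of them, and replicates 4 and 6, at 380 and 376, at their upper end. The difference of −0.21 ± 0.19 was the largest among the 10 genes in size and did not pass (SE; limma, adjusted p = 0.646, unadjusted p = 0.286). Without replicate 3 it was −0.05 ± 0.14 (limma, adjusted p = 0.871), and with the GC trend removed −0.204 (limma, adjusted p = 0.569).

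The promoters of this pair are shown because both genes were lowest in the same library and have the widest spread, and because their control by fasting signals is well known. Prkaa1, Prkaa2 and Prkab2 were also lowest in that library, 4-HPAA replicate 3. Without it the SE fell from 0.227 to 0.105 for Sirt1 and from 0.191 to 0.137 for Ppargc1a. A link between promoter sites and these levels was not tested. The Ppargc1a promoter is a textbook target of CREB, which binds the cyclic AMP response element, with CRTC2, itself an AMPK substrate, as its coactivator. Sequences are from RefSeq (GRCm38.p6), from 250 bases before to 50 after a start site, 5′ to 3′ on the strand of the gene, in windows of 300 bases. Capitals mark TGACG or its reverse complement CGTCA, a half-site of the cyclic AMP response element, in Ppargc1a (chr5:51567676-51567975). In Sirt1 (chr10:63338986-63339285) they mark CACGTG, an E-box.
Ppargc1a: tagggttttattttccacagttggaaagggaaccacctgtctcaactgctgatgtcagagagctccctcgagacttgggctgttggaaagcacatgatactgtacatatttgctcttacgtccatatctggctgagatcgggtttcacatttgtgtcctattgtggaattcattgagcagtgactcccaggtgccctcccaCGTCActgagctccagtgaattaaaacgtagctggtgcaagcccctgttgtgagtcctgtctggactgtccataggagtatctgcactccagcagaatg
Sirt1: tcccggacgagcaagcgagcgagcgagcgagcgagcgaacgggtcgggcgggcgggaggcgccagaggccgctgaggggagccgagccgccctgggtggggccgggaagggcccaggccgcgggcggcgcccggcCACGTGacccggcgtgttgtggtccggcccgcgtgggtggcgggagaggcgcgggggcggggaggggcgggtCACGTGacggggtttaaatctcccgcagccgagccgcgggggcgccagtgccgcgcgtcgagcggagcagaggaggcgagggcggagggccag
The Ppargc1a window held 1 match to TGACG on either strand, and the Sirt1 window 2 matches to CACGTG, which reads the same on both strands. All 10 genes had at least 1 window, 12 in all. TGACG was in 5 of these 12 windows (of Ppargc1a, Prkaa2, Prkag1, Sirt1 and Stk11) and in 20.8% of all 32851 windows. CACGTG was in 1 of the 12 (of Sirt1) and in 7.15% of all windows. In Sirt1 the second E-box overlaps a TGACG match. These are matches of letters, and binding was not measured.

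How small a change these data could detect follows from the spread between livers. A smallest detectable change is given here as the true difference that 6 against 6 livers would bring past a two-sided unadjusted p of 0.05 with 80% power, from the error and degrees of freedom of the limma fit. It was smallest for Prkag1, at 0.21 on the log2 scale or 1.16-fold, followed by Stk11 at 0.24 (1.18-fold), Prkab1 at 0.29 (1.23-fold), Prkag2 at 0.30 (1.23-fold) and Camkk2 at 0.30 (1.23-fold). These 5 are the genes of higher GC content, in which 4-HPAA replicate 3 was not low. For Prkaa2 it was 0.43 (1.35-fold), for Prkaa1 0.46 (1.37-fold), for Ppargc1a 0.57 (1.49-fold), for Prkab2 0.59 (1.51-fold) and for Sirt1 0.68 (1.61-fold). Over all genes tested the median was 0.39, or 1.31-fold, with quartiles of 0.29 and 0.61. Prkag1 was thus more precise than most genes, since 95.5% of genes tested had a larger smallest detectable change, and Sirt1 less, with 20.0%.

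A gene that must pass on its own after adjustment over all 12720 genes needs a far larger change. The unadjusted p it needs is 3.93e-06, and the change found with 80% power was then 0.60 for Prkag1 (1.52-fold), 0.68 for Stk11 (1.604-fold), 0.83 for Prkab1 (1.78-fold), 0.84 for Prkag2 (1.80-fold) and 0.85 for Camkk2 (1.80-fold). It was 1.21 for Prkaa2 (2.32-fold), 1.29 for Prkaa1 (2.45-fold), 1.63 for Ppargc1a (3.10-fold), 1.67 for Prkab2 (3.19-fold) and 1.97 for Sirt1 (3.90-fold). For Prkaa1, Prkaa2, Prkab2, Sirt1 and Ppargc1a, then, a doubling would have been found with less than 80% power if it were the only change in the transcriptome. Without 4-HPAA replicate 3, the smallest change detectable at an unadjusted p of 0.05 was 1.21-fold for Prkaa2, 1.22-fold for Prkaa1, 1.246-fold for Sirt1, 1.33-fold for Ppargc1a and 1.39-fold for Prkab2. For the other 5 genes it was then 1.14-fold (Stk11 and Prkag1) to 1.24-fold (Prkag2). With the GC trend removed and all 12 libraries kept, it was 0.211 on the log2 scale for Prkaa2, 0.289 for Prkaa1, 0.392 for Sirt1, 0.514 for Ppargc1a and 0.543 for Prkab2. Counting error alone gives an SD of 0.032 (Stk11) to 0.143 (Prkab2) on the log2 scale, below the spread between livers for every gene, which was 0.101 to 0.445.

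**Figure D4:**
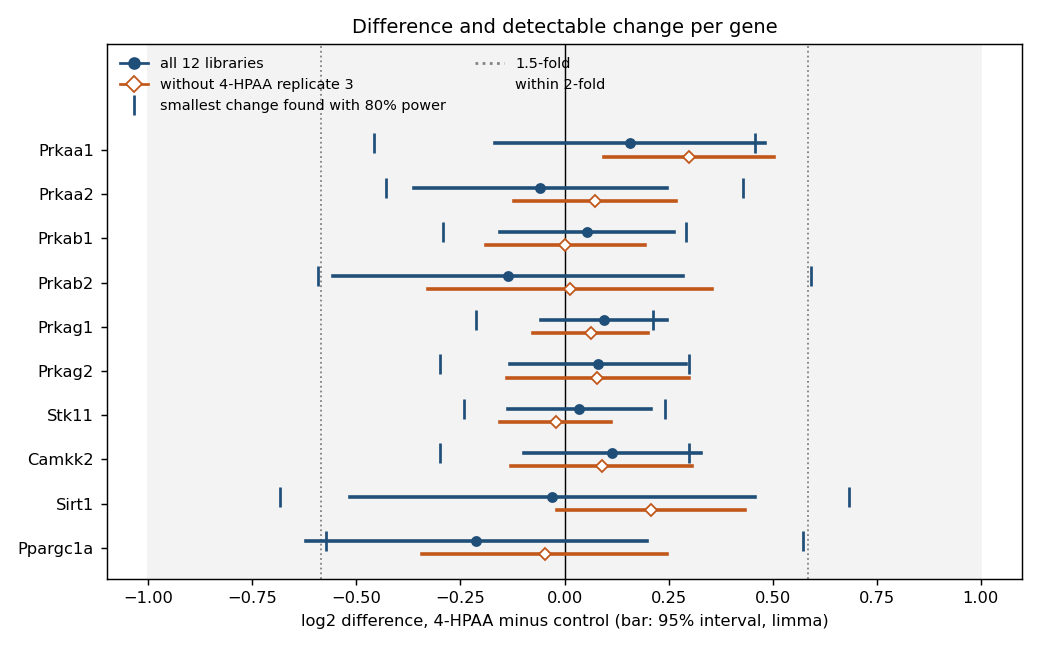
Log2 difference, 4-HPAA minus control (horizontal axis), of each gene with its 95% interval, over all 12 libraries (blue circles) and without 4-HPAA replicate 3 (orange diamonds). Blue ticks mark the smallest change found with 80% power at an unadjusted p of 0.05, from 0.21 for Prkag1 to 0.68 for Sirt1, dotted lines mark 1.5-fold and the grey band 2-fold. Of the 20 intervals drawn, the one for Prkaa1 without that library is the 1 that leaves out 0.

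Levels can be compared between genes only per length, and the order depends on the length used. Per kilobase of all exons of a gene merged, control means were 435.6 ± 30.4 normalised reads for Prkag1 and 430.3 ± 30.8 for Stk11, followed by Prkaa2 at 228.5 ± 17.3, Prkab1 at 170 ± 18.8 and Prkag2 at 125.2 ± 19.3 (SD, n = 6 each). Sirt1 at 67.7 ± 8.1, Prkaa1 at 57.6 ± 5.0 and Ppargc1a at 47.7 ± 5.6 came next, and Prkab2 at 20.2 ± 2.6 and Camkk2 at 17.7 ± 2.2 were lowest. Control ranges of neighbours in this order overlapped in 6 of 9 cases and did not between Stk11 and Prkaa2, Prkag2 and Sirt1, or Ppargc1a and Prkab2. By the mean length of coding transcripts, Camkk2 was at 89.9, above Prkaa1 and Prkab2, and Prkag2 at 477.1 ± 73.6, above Prkab1 and Prkaa2. Under both lengths Prkaa2 was above Prkaa1, Prkab1 above Prkab2, and Prkag1 above Prkag2. With 4-HPAA the means per kilobase of merged exons lay within 1 SD of the control spread for 9 of the 10 genes and beyond it for Prkaa1, at 65.7 ± 15.1 (SD, n = 6).

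Genes were also listed whose levels followed Prkaa1, Prkaa2 and Ppargc1a most closely over the 12 livers. Likeness is the mean absolute difference between standardised log2 values (in SD units), which over all genes has a median of 1.04 to 1.08, and is given as a description. For Prkaa1 the nearest were Rps6kb1 at 0.201, Hnrnph2 at 0.205 and Ppil4 at 0.213. For Prkaa2 they were Jak2 at 0.184, Mef2a at 0.206 and Suz12 at 0.214, and for Ppargc1a they were Nfib at 0.254, Fnip1 at 0.257 and Bag4 at 0.26. These 9 genes had a GC content of 38.7 to 47.1%, against 40.1 to 47.2% for the 5 AMPK-set genes that were lowest in 4-HPAA replicate 3.

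The wider pathway was taken as 114 other genes in 7 lists, of which 107 were tested. None passed (limma, adjusted p under 0.05: 0 of 107), and at an unadjusted p under 0.05 there were 4 higher and 12 lower genes in 4-HPAA, 15% of those tested against 14.8% of all genes, with 7.26% of all genes higher and 7.56% lower.

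**Figure D5:**
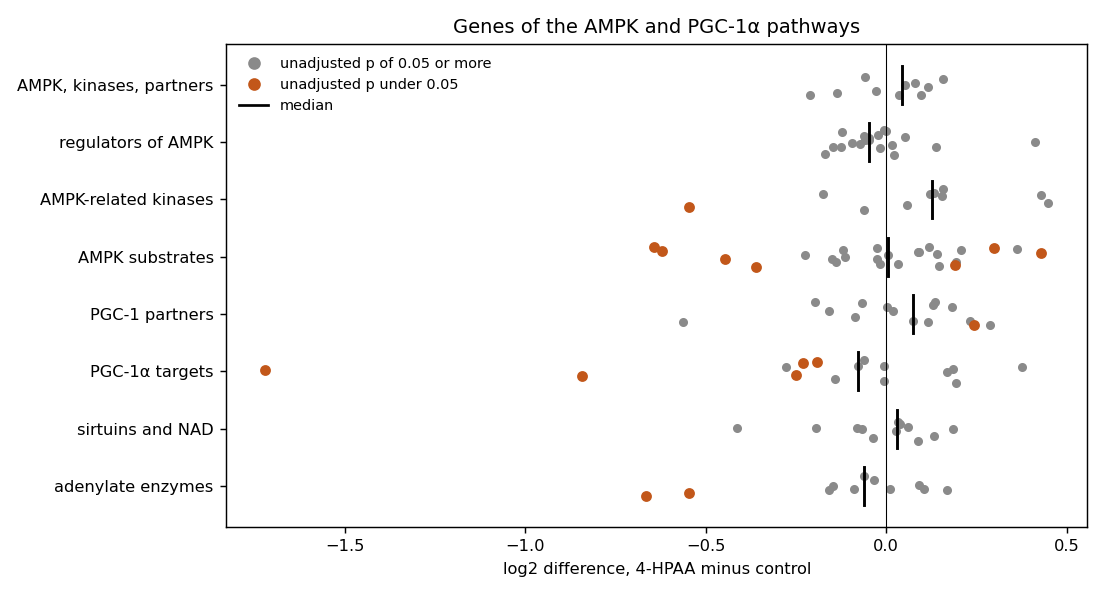
Log2 difference, 4-HPAA minus control (horizontal axis), of every tested gene of the AMPK set and of the 7 pathway lists (rows). Points are genes, orange where the unadjusted p (limma) was under 0.05, and vertical bars are medians. The AMPK set holds no orange point, and the list medians lie between −0.08 and 0.13.

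Among regulators of AMPK, 0 of 19 tested genes had an unadjusted p under 0.05 (limma), against 14.8% of all genes tested. The median difference was −0.05. Cab39, which encodes the MO25 scaffold of LKB1, was at −0.05 ± 0.11, and the pseudokinase genes Strada and Stradb, which hold LKB1 in its active form, at −0.17 ± 0.12 and −0.02 ± 0.09 (SE; limma, adjusted p = 0.549 or more). Cab39 was low in 4-HPAA replicate 3, at 1079 against 1508 to 1823 in the other livers, and its difference was 0.06 without it. Map3k7, which encodes the kinase TAK1, was at 0.05 ± 0.08, and the calmodulin gene Calm2 at −0.12 ± 0.10. Without 4-HPAA replicate 3 these were 0.12 and −0.03, and Stradb was at −0.0028. Camkk1, the close relative of Camkk2, had values of only 2 to 13 and was not tested.

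Of 10 tested AMPK-related kinases, which LKB1 also activates, 1 had an unadjusted p under 0.05 (limma), against 14.8% of all genes tested. That gene, Mark1, a microtubule-affinity regulating kinase, was at 27.2 ± 4.8 normalised reads in control livers and 18.3 ± 3.5 in 4-HPAA livers (SD, n = 6 each), a difference of −0.55 ± 0.18 (SE; limma, adjusted p = 0.206). At such low values counting error is large. Nuak2 was at 0.45 ± 0.22, Sik1, a salt-inducible kinase induced by cyclic AMP, at 0.43 ± 0.26, and Snrk at −0.18 ± 0.09 (SE; limma, adjusted p = 0.356, 0.457 and 0.401).

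Substrates of AMPK were on both sides of 0, with a median of 0.00 (0.004 before rounding). At an unadjusted p under 0.05 there were 3 higher and 4 lower of 25 genes, against 7.26% and 7.56% of all genes tested. Acaca and Acacb encode the acetyl-CoA carboxylases. Acaca was at −0.15 ± 0.13, and Acacb was at 2876.3 ± 657.8 normalised reads in control livers and 1899.3 ± 594.8 in 4-HPAA livers (SD, n = 6 each), a difference of −0.62 ± 0.19 (SE; limma, unadjusted p = 0.00643, adjusted p = 0.199). 4-HPAA replicates 1 and 4 of Acacb, at 2615 and 2696, lay among the controls, and the others, at 1437 to 1713, lay below all of them. The smallest p belonged to Tbc1d4, a Rab GTPase-activating protein that controls glucose transporter traffic: it ranged from 124 to 148 in controls and from 84 to 116 with 4-HPAA, with no overlap, and differed by −0.45 ± 0.11 (SE; limma, unadjusted p = 0.00126, adjusted p = 0.142). Mlxipl, which encodes the carbohydrate-responsive factor ChREBP, was at 0.43 ± 0.12 (SE; limma, adjusted p = 0.183). Ulk1, which starts autophagy, was at 0.12 ± 0.09, and Crtc2 at 0.09 ± 0.10 (SE; limma, adjusted p = 0.568 and 0.74). Without 4-HPAA replicate 3 Crtc2 was at 0.04.

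Partners of PGC-1alpha had 1 higher and 0 lower of 15 tested genes at an unadjusted p under 0.05 (limma). The shares over all genes tested were 7.26% and 7.56%. That gene was Tfb1m, a mitochondrial ribosomal RNA methyltransferase, at 0.24 ± 0.11 (SE; limma, adjusted p = 0.301). Ppargc1b, the paralog of Ppargc1a, was at 0.00 ± 0.19 (121.8 ± 28.9 and 121.7 ± 30.1 normalised reads, SD, n = 6 each), and at −0.05 without 4-HPAA replicate 3. The nuclear receptor genes Ppara and Hnf4a were at −0.16 ± 0.13 and 0.23 ± 0.13, the respiratory factor Nrf1 at 0.12 ± 0.10 and Gabpb1 at 0.18 ± 0.09 (SE; limma, adjusted p = 0.614, 0.408, 0.641 and 0.382).

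Genes that PGC-1alpha induces had 0 higher and 5 lower of 15 at an unadjusted p under 0.05 (limma), and a median of −0.08. Over all genes tested 7.26% were higher and 7.56% lower at that threshold. Without 4-HPAA replicate 3 the counts were 1 higher and 4 lower, and 0 of the 15 passed after adjustment in either fit. Pck1 and G6pc, which encode enzymes of gluconeogenesis, were at −0.01 ± 0.17 and 0.38 ± 0.30 (SE; limma, adjusted p = 0.99 and 0.598). Pck1 was at 0.04 without 4-HPAA replicate 3. Cpt1a, which admits fatty acids to mitochondria, was at −0.23 ± 0.08, and Tfam, which packages mitochondrial DNA, at −0.19 ± 0.09 (SE; limma, adjusted p = 0.219 and 0.329). The smallest p values belonged to Fgf21, a fasting hormone, at −1.72 ± 0.53, and to Pdk4, at −0.84 ± 0.29 (SE; limma, adjusted p = 0.199 and 0.206). Both are also targets of PPAR-alpha. Sirt3, a mitochondrial sirtuin, was at −0.06 ± 0.10 (SE; limma, adjusted p = 0.813).

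Sirtuins and enzymes of NAD had 0 of 12 genes at an unadjusted p under 0.05 (limma), against 14.8% of all genes tested. Nampt, which makes the NAD precursor that SIRT1 depends on, was at −0.41 ± 0.20 (SE; limma, unadjusted p = 0.0534, adjusted p = 0.346), and at −0.22 without 4-HPAA replicate 3, where it was lowest at 1366. Sirt4 was at 0.18 ± 0.11 and Sirt6 at 0.03 ± 0.17 (SE; limma, adjusted p = 0.446 and 0.958). Without 4-HPAA replicate 3, the highest 4-HPAA liver for Sirt4, these were 0.09 and −0.0063. Enzymes that set the pools of AMP had 0 higher and 2 lower of 11 at an unadjusted p under 0.05, against 7.26% and 7.56% of all genes tested. The 2 were Nt5e, a 5′-nucleotidase at the cell surface that turns AMP into adenosine, at −0.67 ± 0.22, and Ampd3, an AMP deaminase, at −0.55 ± 0.20 (SE; limma, adjusted p = 0.206 and 0.237). Adk, adenosine kinase, was at 0.09 ± 0.07 (SE; limma, adjusted p = 0.602), and at 0.14 without 4-HPAA replicate 3.

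Markers of hepatocytes were abundant in every library, as the liver label requires. Library totals of the normalised counts were 22869813 to 25255447, from an estimated 22388924 to 26929205 reads. All 8 hepatocyte markers, such as Alb and Ttr, were tested, with 1 higher and 1 lower at an unadjusted p under 0.05 (limma). Their summed values were 2434782 to 2960350 in controls and 2107021 to 2712844 with 4-HPAA. Markers of other cells had far lower sums. For 8 stellate cell and fibroblast markers these were 6359 to 9679 and 4007 to 7633, with 6 of 8 lower at an unadjusted p under 0.05. For 8 macrophage markers they were 1397 to 3971 and 1691 to 3204, with 2 of 8 lower, and for 8 endothelial markers 4489 to 5389 and 4048 to 5452, with 2 of 8 lower. Of the remaining lists, 6 of 7 cholangiocyte, 3 of 8 lymphocyte and 2 of 6 adipocyte markers were tested, with 1, 0 and 2 lower. Over all genes tested 7.26% were higher and 7.56% lower at that threshold, and 0 markers of any list passed after adjustment (limma; smallest adjusted p for stellate cells 0.134). The part of these cells in the levels of the AMPK genes was not tested.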

How the data were processed

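The deposited table holds whole numbers for 13267 genes in 12 libraries, each gene under 1 Ensembl transcript ID, and was handled as a score: read counts that the authors scaled library by library and then rounded. That scaling is inferred from gaps and pile-ups among the low deposited values, which match factors of 0.8865 to 1.1775. Per the submitters' processing notes, the build was GRCm38 and the tools included STAR, HTSeq, cutadapt, FastQC 0.11.9, edgeR and DESeq2 1.28.1. No source used here gives their roles, the annotation release or the strand setting. The smallest value is 2, so genes without reads in a library do not appear. IDs were matched to GENCODE M21 (13203 of 13267). For 5 of the 10 AMPK genes, and 40.7% of named coding genes, the ID is of a transcript not classed as protein-coding, so values were read as those of genes. Each symbol has 1 row.

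Limma 3.58.1 in R 4.3.3 (trend and robust eBayes) was fitted on log2(value + 1) for the 12720 genes with at least 10 in at least 6 libraries, which understates the change of low genes. Benjamini-Hochberg adjustment ran over these genes, and 0.05 was the threshold. Detectable changes came from the noncentral t distribution, and isoform ratios were tested over all 924 splits of the livers. Named genes are all members, 25 fixed pathway genes where tested and the 2 of smallest p in each list, with 3 genes of like pattern for Prkaa1, Prkaa2 and Ppargc1a. One of the fixed pathway genes is not reported here. Members, lists and tests were chosen with earlier results of these data known. The fit and the power formula were tested on simulated data. Within groups, 30 pairs of libraries differed by more than sampling noise (chi-square per gene of 17.86 to 119.92). Alternatives were other pseudocounts, filters and scalings, array weights, a replicate block, each library left out and, added after seeing the data, removal of GC trends (lowess, span 0.3) and another gene length. Plots used Python 3.11.15 and matplotlib 3.10.9.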

Additional observations from a re-analysis of the deposited data

Results flagged for a closer look

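Of 96 groups of 6 values checked (10 AMPK-set genes, 35 other named genes and 3 ratios in each of 2 groups), 7 held a library set apart from the other 5, where chance gives about 5%. Among them 5 came from 4-HPAA replicate 3. It was the highest 4-HPAA liver for Stk11, at 2457 against 2009 in the next, and the lowest for Sirt1, at 154 against 351 in the next. It was also the lowest for Cab39, at 1079 against 1636, and for Adk, at 15500 against 18079, and the highest for Sirt4, at 422 against 317. The remaining 2 were controls: replicate 6 was the lowest for Cpt1a, at 13178 against 16280, and replicate 1 the highest for Gabpb1, at 211 against 184.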

How the results depend on the processing

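Under 23 alternatives each, 0 of 230 values of the 10 AMPK-set genes and 0 of 800 values of the other named genes reached an adjusted p of 0.05 (limma), the smallest being 0.0999 and 0.0598. Signs turned in 11 and 30 of these values, including values of Prkab2, which was at −0.136 in the main fit. With array weights the differences were 0.041 for Prkaa2, 0.045 for Prkab2, −0.027 for Stk11, 0.138 for Sirt1, 0.062 for Cab39 and −0.137 for Ppargc1b, with the GC trend removed 0.019 for Prkaa2, 0.037 for Sirt1 and −0.019 for Ppargc1b, with equal totals −0.027 for Ppargc1b and −0.004 for Sirt6, and with median-of-ratios factors −0.001 for Ppargc1b. With 1 library left out, differences ranged from −0.125 to 0.073 for Prkaa2, −0.218 to 0.014 for Prkab2, −0.021 to 0.063 for Stk11, −0.109 to 0.208 for Sirt1, −0.086 to 0.065 for Cab39, −0.067 to 0.015 for Stradb, −0.138 to 0.089 for Pck1, −0.125 to 0.072 for Ppargc1b and −0.037 to 0.158 for Sirt6, and ratio differences from −0.318 to 0.012 for Prkab2 to Prkab1 and −0.068 to 0.049 for Prkag2 to Prkag1. The causes were not tested.

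Over all genes, those with an adjusted p under 0.05 (0 with all libraries, 1886 unadjusted) numbered 0 to 193 with 1 library left out, 193 without 4-HPAA replicate 4 and 5 without control replicate 1, and 139 with array weights, which also gave 3050 genes at an unadjusted p under 0.05, 28 of them in the pathway lists. Same-numbered control and 4-HPAA livers correlated at −0.183 to 0.282 in their deviations, and 3 of 6 controls correlated best with their own number, so not every pair correlated and the numbers were not taken to pair the livers. With a replicate block 11 genes passed over all genes and 0 of the AMPK set or the pathway lists, and the ratio of Prkaa2 to Prkaa1 had an adjusted p of 0.469. Depth limits the lowest values most, those of Prkab2, Mark1, Ampd3 and Camkk1.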
